A study of Homo sapiens with 8 samples.

Results

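The 9 genes described here encode transcription factors, most of them with a part in dividing the ventral neural tube into progenitor domains. The 9 are OLIG1, OLIG2 and OLIG3, NKX2-2, NKX6-1 and NKX6-2, PAX6, and IRX3 and IRX5, chosen by name from 58217 genes with a quantified transcript. Their RNA was measured in 8 libraries of oligodendrocyte progenitor cells (OPCs), the dividing precursors of the myelin-forming glia, which had been derived from the human embryonic stem cell line H9. The cells had been replated for 2 days on one of 3 coatings: Matrigel, a basement membrane extract that served as the control (2 libraries, numbered 2 and 3), recombinant vitronectin (VN, 3 libraries), or VNP2, an RGD-containing peptide designed from vitronectin and joined to a mussel adhesive protein (VNP2, 3 libraries). No library carried SOX10 overexpression. All cells shared 1 embryonic stem cell line, had been induced with retinoic acid, the Smoothened agonist SAG and inhibitors of BMP and TGF-beta signalling, and were kept in a medium that again held retinoic acid and SAG. The comparisons therefore ask whether the patterning factors differed between the coatings while the ventralising drug was present in every group. By the methods, vessels were chemically activated before the peptide was added, so peptide and surface treatment cannot be told apart.

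In the embryo, Sonic hedgehog (SHH) from the notochord and floor plate sets up these domains. SHH induces the class II factors (NKX2-2, NKX6-1, NKX6-2 and OLIG2) and represses the class I factors (PAX6, IRX3 and IRX5), and factors of the opposing classes repress each other: NKX2-2 against PAX6, and OLIG2 against IRX3. NKX2-2 marks the most ventral neuronal domain, p3, and OLIG2 the neighbouring pMN domain, which makes motor neurons first and OPCs later. OLIG1 lies beside OLIG2 and acts in oligodendrocyte maturation. OLIG3 is best known from dorsal progenitor domains. In bulk RNA, fewer cells of a type and less RNA per cell cannot be told apart, so a level below is the average over all cells of a dish.

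The genes lie on 7 chromosomes (GENCODE v29, GRCh38). OLIG2 (chr21:33025845-33029196, plus strand) and OLIG1 (chr21:33070144-33072420, plus strand) are neighbours, and IRX3 (chr16:54283304-54286763, minus strand) and IRX5 (chr16:54930862-54934485, plus strand) sit in one IRX cluster. OLIG3 is at chr6:137492202-137494250, NKX2-2 at chr20:21511010-21514026, NKX6-1 at chr4:84491987-84498450, NKX6-2 at chr10:132783179-132786052 and PAX6 at chr11:31784779-31818062, all on the minus strand. Because the proteins of one family share a DNA-binding domain, parts of their coding exons are alike in sequence, which bears on how reads were shared out between them. The longest identical coding stretch of each of 2 pairs is printed, in lower case from the sense strand, from the GENCODE v29 transcripts.
OLIG2 and OLIG3, 22 bases in single coding exons (chr21:33027331-33027352 and chr6:137493756-137493777): aactacatcctcatgctcacca
IRX3 and IRX5, 134 bases in single coding exons (chr16:54285321-54285454 and chr16:54932633-54932766): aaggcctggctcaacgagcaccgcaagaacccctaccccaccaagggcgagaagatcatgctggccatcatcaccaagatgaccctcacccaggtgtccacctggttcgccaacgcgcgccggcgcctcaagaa
No stretch of 31 bases was shared among OLIG1, OLIG2 and OLIG3, so reads of that length or longer could tell them apart. NKX6-1 shared 3 different 31-base stretches with NKX6-2 out of 3056, and NKX2-2 shared 14 out of 2062 with NKX2-1, its relative of the ventral forebrain. NKX2-1 was the more abundant of the pair, and whether its reads added to the NKX2-2 counts was not tested. IRX3 shared 104 of its 2966 stretches with IRX5, 43 with IRX1 and 48 with IRX2. The split of reads between IRX3, IRX5 and the more abundant IRX1 and IRX2 is for that reason uncertain.

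Levels per transcript length spanned about 3 orders of magnitude. In TPM, the transcript abundance corrected for length and depth, averaged over the 8 libraries, OLIG1 was highest at 60.6, followed by OLIG2 at 49.6, NKX6-1 at 24.6 and NKX2-2 at 16.03. The remaining 5 factors were low: NKX6-2 at 2.18, IRX3 at 0.81, IRX5 at 0.54, OLIG3 at 0.32 and PAX6 at 0.09. OLIG1 was above OLIG2 in 8 of 8 libraries, by 1.22-fold in the mean, although their ranges over all libraries overlapped. OLIG2 was above NKX6-1, NKX6-1 above NKX2-2, and NKX2-2 above NKX6-2 in 8 of 8 libraries each. Below NKX6-2 the order was not fixed. IRX3 exceeded IRX5 in 5 of 8 libraries, and IRX5 exceeded OLIG3 in 5 of 8, all 3 exceptions being the VN libraries. The class II factors of the ventral domains were thus the abundant ones, except NKX6-2, and all 3 class I factors were at or under 1.51 TPM in every library.

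**Figure D1:**
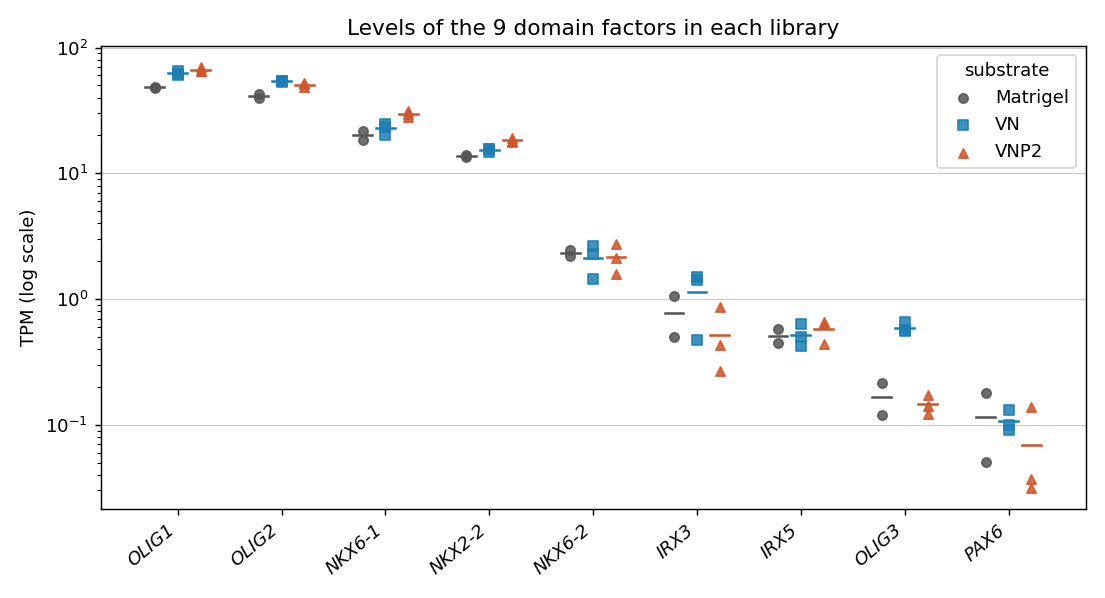
TPM of each factor (log scale, vertical axis) in each library, with circles for Matrigel, squares for VN, triangles for VNP2 and short lines at the mean of each substrate. OLIG1, OLIG2, NKX6-1 and NKX2-2 lie above 10 TPM in every library, and OLIG3 alone among the low factors separates VN from the other substrates.

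Single transcripts carried most of each abundant gene. The leading transcript held 90.9% to 95.8% of the OLIG1 counts over the libraries, 91.9% to 96.1% of those of OLIG2 and 96.8% to 99.2% of those of NKX6-1. NKX2-2 and OLIG3 each have 1 annotated transcript. For IRX3, the share of the leading transcript ran from 53.8% to 100%, and for IRX5 from 0% to 100%. The values of both below, which are corrected for transcript length, carry that extra spread.

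Each substrate was compared with each other one by edgeR's quasi-likelihood test on all 8 libraries, with Benjamini-Hochberg adjusted p-values over 18201 genes. The labels do not say whether libraries of a group came from separate cultures, so the p-values measure the spread between these libraries only. Libraries held 37997896 to 39429453 estimated counts. VN replicate 1 stood apart from VN replicates 2 and 3: the median squared count difference, scaled so that sampling alone gives 0.455, was 2.07 and 2.37 between it and the other 2, against 0.70 to 1.11 for every other pair of one group. Normalised counts are counts scaled for library size and transcript length, and are comparable between libraries for 1 gene. Of the 9 factors 8 had enough counts to be tested, and PAX6 did not.

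On VN compared with Matrigel, 3 of the 8 tested factors (OLIG1, OLIG2 and OLIG3) were higher and none was lower at an adjusted p under 0.05 (edgeR), where 15.2% of all tested genes passed, 5.81% higher and 9.41% lower. On VNP2 compared with Matrigel, 4 of 8 (OLIG1, OLIG2, NKX2-2 and NKX6-1) were higher and none lower, against 16.6% of all genes, 7.45% higher and 9.13% lower. Between VNP2 and VN, 2 of 8 (NKX2-2 and NKX6-1) were higher on VNP2 and 1 (OLIG3) was lower, against 5.18% of all genes, 3.07% higher and 2.1% lower. The libraries of the pair did not overlap for 4 of 8 factors in each comparison, against 44.4% of all genes for VN and Matrigel, 48.1% for VNP2 and Matrigel, and 23.5% for VNP2 and VN. In 1 test for any difference among the 3 substrates, 5 of 8 (OLIG1, OLIG2, OLIG3, NKX2-2 and NKX6-1) passed, against 19.3% of all genes. The median log2 fold change of the 8 factors was 0.20 for VN against Matrigel, 0.17 for VNP2 against Matrigel and 0.074 for VNP2 against VN, with medians of 0.0083, 0.0030 and -0.0026 over all tested genes. The comparisons share libraries, so their counts are not independent of each other.

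OLIG2, the pMN factor that is required for OPC formation, was higher on both vitronectin-type substrates. The Matrigel libraries had 1762 and 1643 normalised counts, the VN libraries 2107, 2115 and 2104, and the VNP2 libraries 1907, 2074 and 2014. Both Matrigel libraries lay below all 6 others, and the 3 VN libraries lay above the 3 VNP2 libraries. The log2 fold change was 0.31 (SE 0.053, edgeR adjusted p = 0.00343) for VN against Matrigel, a 1.24-fold difference with a 95% interval of 1.14 to 1.34. For VNP2 against Matrigel it was 0.23 (SE 0.053, adjusted p = 0.0131), or 1.17-fold with an interval of 1.08 to 1.273. Although VN and VNP2 did not overlap, their difference of -0.078 did not pass (SE 0.046, edgeR adjusted p = 0.398), with an interval of -0.18 to 0.025.

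OLIG1, the partner of OLIG2 on chromosome 21, was also higher than on Matrigel on both substrates, with the higher mean on VNP2. Normalised counts in the Matrigel libraries were 1506 and 1538, those in the VN libraries 1985, 1793 and 1843, and those in the VNP2 libraries 1983, 1961 and 2110. No library of VN or VNP2 fell into the Matrigel range, while VN and VNP2 overlapped. The log2 fold change was 0.30 (SE 0.058, edgeR adjusted p = 0.00696) on VN and 0.41 (SE 0.058, adjusted p = 0.000829) on VNP2, and that between VNP2 and VN was 0.11 (SE 0.051, adjusted p = 0.285). OLIG1 on VNP2 was the only one of the 4 factors called against Matrigel on that substrate that passed with any 1 library left out, with adjusted p-values of 0.000362 to 0.0141 (edgeR). Without Matrigel replicate 3, OLIG1 and OLIG2 on VN had edgeR adjusted p-values of 0.0507 and 0.0538, and OLIG2 on VNP2 had 0.142. Without Matrigel replicate 2, OLIG1 on VN had 0.0663. All these differences kept their sign.

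NKX2-2, which specifies the p3 domain and later works in oligodendrocyte differentiation, was higher on VNP2 than on either other substrate. The Matrigel libraries held 614.6 and 580.5 normalised counts, the VN libraries 621.7, 642.3 and 635.3, and the VNP2 libraries 734.1, 791.5 and 750.1. Every VNP2 library was above every other library, and VN lay just above Matrigel. The log2 fold change on VNP2 was 0.34 against Matrigel (SE 0.065, edgeR adjusted p = 0.00464) and 0.26 against VN (SE 0.057, adjusted p = 0.0271), that is 1.269-fold and 1.20-fold. On VN against Matrigel it was 0.083 (SE 0.065, adjusted p = 0.436), with a 95% interval of -0.062 to 0.23. The difference between VNP2 and VN failed in 5 of 8 fits with 1 library left out (each VNP2 library, VN replicate 2 and VN replicate 3), where the edgeR adjusted p reached 0.102 and the log2 fold change stayed between 0.23 and 0.28. Against Matrigel it failed without Matrigel replicate 3 (adjusted p = 0.0607).

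NKX6-1, which acts in p3, pMN and p2 progenitors and lies upstream of OLIG2 in pMN, showed the same pattern with a larger difference. With Matrigel it had 1012 and 855.4 normalised counts, with VN 904.8, 1029.6 and 1081, and with VNP2 1252, 1388 and 1308. The 3 VNP2 libraries were again the highest of the 8, and VN and Matrigel overlapped. The log2 fold change on VNP2 was 0.50 against Matrigel (SE 0.092, edgeR adjusted p = 0.00428), or 1.41-fold with a 95% interval of 1.22 to 1.63. Against VN it was 0.39 (SE 0.081, adjusted p = 0.0210), or 1.31-fold. On VN against Matrigel it was 0.11 (SE 0.093, adjusted p = 0.492). Without VN replicate 2, VNP2 replicate 2 or VNP2 replicate 3 the difference between VNP2 and VN did not pass, with an edgeR adjusted p of up to 0.0769, and without Matrigel replicate 3 that against Matrigel did not (adjusted p = 0.0605).

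Over the 8 libraries NKX2-2 and NKX6-1 had a Pearson correlation of 0.97 in log2 CPM, the highest of the 28 pairs of tested factors, while OLIG2 and NKX2-2 had 0.43. The points share 3 substrates, so these values restate the group differences in part. The ratio of OLIG2 to NKX2-2, in TPM, did not overlap between substrates, and it restates in part the differences of the 2 genes given above. Single genes did not overlap in 44.4% of cases for VN and Matrigel, 48.1% for VNP2 and Matrigel, and 23.5% for VNP2 and VN. The share for ratios of other gene pairs was not computed. On the log2 scale the ratio was 1.60 and 1.58 in the Matrigel libraries, 1.84, 1.80 and 1.81 in the VN libraries, and 1.46, 1.47 and 1.503 in the VNP2 libraries. In geometric means OLIG2 was thus 3.01 times NKX2-2 with Matrigel, 3.52 times with VN and 2.78 times with VNP2, a description that was given no test.

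**Figure D2:**
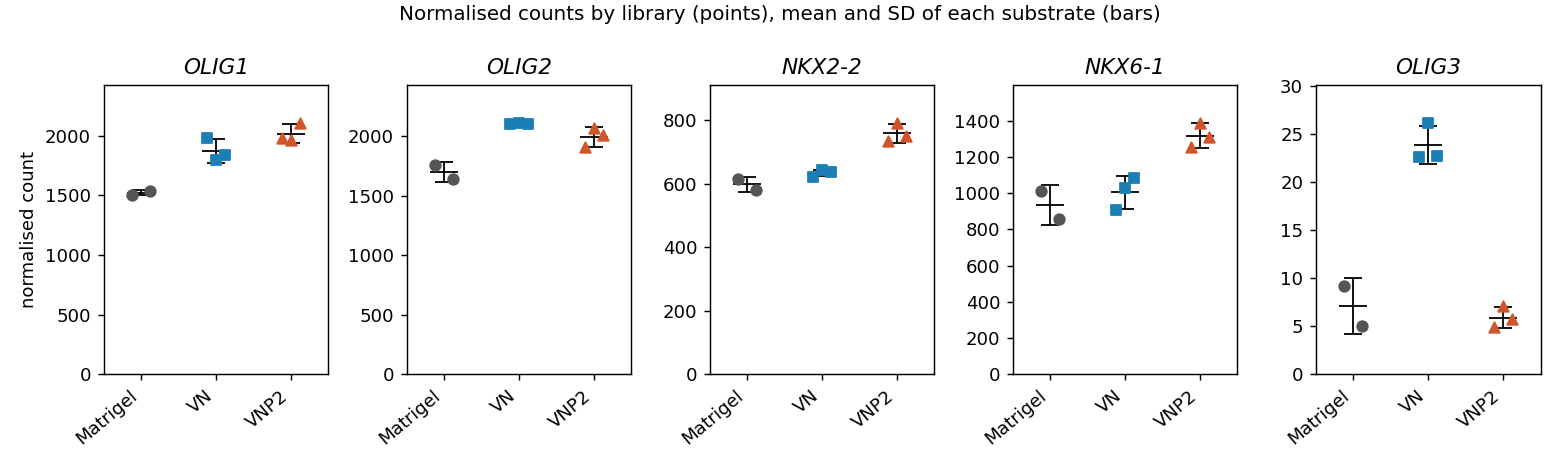
Normalised counts (vertical axes, each from 0) of the 5 factors that passed the test in any comparison, by library, with the mean and SD of each substrate (n = 2, 3 and 3). OLIG1 and OLIG2 separate Matrigel from VN and VNP2, NKX2-2 and NKX6-1 separate VNP2 from the other substrates, and OLIG3 separates VN.

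OLIG3 differed by the largest fold of the 8 tested factors, at a very low level. Its estimated counts were whole reads summing to 103 over all libraries, and the normalised counts were 9.2 and 5.1 with Matrigel, 22.7, 26.2 and 22.7 with VN, and 4.9, 7.1 and 5.7 with VNP2. The 3 VN libraries stood above all others, and Matrigel and VNP2 overlapped. The log2 fold change on VN against Matrigel was 1.73 (SE 0.39, edgeR adjusted p = 0.0146), or 3.32-fold with a 95% interval of 1.82 to 6.06. On VNP2 against VN it was -1.99 (SE 0.35, adjusted p = 0.00845), and on VNP2 against Matrigel -0.26 (SE 0.45, adjusted p = 0.782). The difference between VNP2 and VN passed with each library left out (adjusted p up to 0.0419). That between VN and Matrigel did not pass without Matrigel replicate 3 (edgeR adjusted p = 0.143), nor by DESeq2 once its filter on low means was turned off (adjusted p = 0.0645), and with that filter DESeq2 gave OLIG3 no adjusted p. The size of these folds depended on the scale: limma on the authors' normalised counts with a pseudocount of 10 gave 0.99 for VN against Matrigel and -1.09 for VNP2 against VN, both still passing. At 0.55 to 0.65 TPM on VN and 0.12 to 0.21 TPM elsewhere, OLIG3 was below OLIG2 by 91.6-fold on VN, 258-fold on Matrigel and 353-fold on VNP2 in geometric means.

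NKX6-2, the close relative of NKX6-1, passed in no comparison. Normalised counts were 74.3 and 82.6 in the Matrigel libraries, 73.9, 45.9 and 84.5 in the VN libraries, and 89.4, 68.8 and 50.6 in the VNP2 libraries, so that all 3 substrates overlapped. Its log2 fold changes were -0.22, -0.18 and 0.041 for VN against Matrigel, VNP2 against Matrigel and VNP2 against VN (edgeR adjusted p = 0.662, 0.739 and 0.954). The 95% interval for VNP2 against Matrigel, -0.82 to 0.46, is wide, and the difference between NKX6-2 and NKX6-1 itself was not tested. Exons of INPP5A on the opposite strand cover 302 bases of the NKX6-2 exons, and INPP5A had 1791 to 2153 counts a library. The library kit keeps strand, but the strand setting of the quantification is not given in the sources used here.

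The class I factors were near the limit of detection. PAX6, the repressor partner of NKX2-2, had 36 counts in all 8 libraries together, with an exact 95% Poisson interval of 25.2 to 49.8 that covers counting error only. The Matrigel libraries had 8.8 and 2.5 normalised counts, the VN libraries 4.3, 4.6 and 6.0, and the VNP2 libraries 6.5, 1.7 and 1.5. All 3 substrates overlapped, and the values were spread over several of the 82 quantified PAX6 transcripts. ELP4, whose exons on the opposite strand cover 5241 bases of PAX6 exons, held 4601 counts in all, and the antisense transcript PAUPAR held 0. NKX2-2 exceeded PAX6 in TPM by 144-fold on Matrigel, 145-fold on VN and 335-fold on VNP2, with an SD of 1.24, 0.24 and 1.21 on the log2 scale, so the substrates cannot be ranked by it.

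IRX3, the repressor partner of OLIG2, had 178 counts in all. With Matrigel it had 33.8 and 15.99 normalised counts, with VN 14.7, 45.5 and 43.0, and with VNP2 8.3, 13.2 and 26.5. Every substrate overlapped every other. The largest of its differences, VNP2 against VN, was -1.13 on the log2 scale (SE 0.54, edgeR adjusted p = 0.284), with a 95% interval of -2.33 to 0.066. Before length correction the counts were 19 and 24, then 22, 36 and 24, then 13, 20 and 20 in the same order, a narrower spread. IRX5 had 160 counts, normalised counts of 15.4 to 24.1 and no difference that passed (edgeR adjusted p = 0.922, 0.884 and 0.812). The 95% intervals of its fold changes reached from 0.57 to 1.78, and a difference within them was not detectable at this depth.

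**Figure D3:**
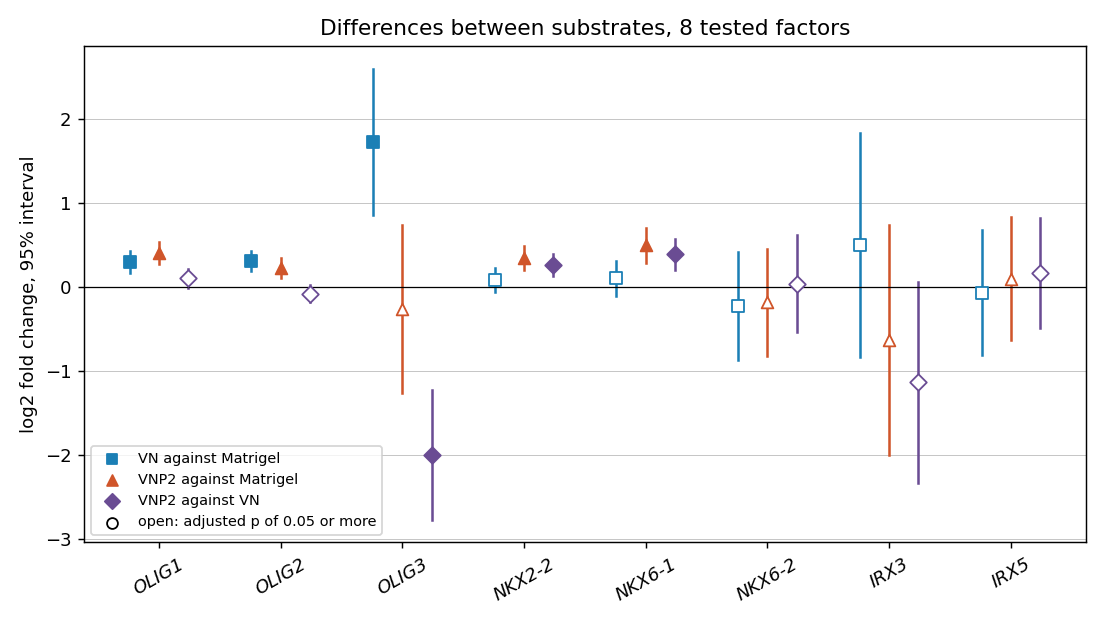
Log2 fold change (vertical axis) with its 95% interval for the 8 tested factors in the 3 comparisons, from the edgeR fit, filled where the adjusted p was under 0.05. The intervals of OLIG1, OLIG2, NKX2-2 and NKX6-1 are narrow, those of OLIG3, NKX6-2, IRX3 and IRX5 are wide, and OLIG3 is the furthest from 0 of those filled.

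The related IRX genes differed from IRX3 and IRX5 in level. IRX1 and IRX2, from the other IRX cluster, were at 9.89 and 12.03 TPM, while IRX4 and IRX6 had 10 and 7 counts in all. IRX1 and IRX2 were higher on VNP2 than on Matrigel by 0.44 and 0.28 on the log2 scale (edgeR adjusted p = 0.00943 and 0.0286), and neither passed in the other 2 comparisons.

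Of 15 genes of the SHH pathway, 3 passed on VN and 3 on VNP2 against Matrigel, close to the background shares, and 1 passed between VNP2 and VN. SHH itself fell on both, with normalised counts averaging 1787 ± 36.6 on Matrigel (SD, n = 2), 1264 ± 23.9 on VN and 1162 ± 69.4 on VNP2 (SD, n = 3), or -0.50 and -0.62 on the log2 scale (edgeR adjusted p = 0.000268 and 4.15e-05). GLI2, a transducer of the signal, fell by 0.78 and 0.99 on the log2 scale (adjusted p = 0.00122 and 0.000185). The transcriptional targets of the pathway did not pass on either substrate: GLI1 had -0.054 and -0.22, PTCH1 -0.084 and -0.11, and HHIP -0.20 and -0.32 on the log2 scale. BOC, a co-receptor, was higher on VNP2 than on both others, by 0.30 and 0.24, and GAS1, another co-receptor, was higher on VN than on Matrigel by 0.59. PTCH1 was at 69.0 TPM and SMO at 67.4 TPM.

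Genes of the domains beside the factors described were unevenly present. Among 6 floor plate genes, 3 passed on VN (FOXA1 higher, SHH and NTN1 lower) and 4 on VNP2 (FOXA1, NTN1 and SPON1 higher, SHH lower). The shares over all tested genes against Matrigel were 15.2% on VN and 16.6% on VNP2. FOXA2, the defining floor plate factor, was at 46.4 TPM, close to OLIG2, and did not pass in any comparison. In the p3 list, SIM1, which marks V3 interneurons, was higher on VN by 0.61 (edgeR adjusted p = 0.00844) and on VNP2 by 1.01 (adjusted p = 0.000289) on the log2 scale. NKX2-8 of the same list had -0.85 on VN (edgeR adjusted p = 0.0597) and -0.31 on VNP2 (adjusted p = 0.483), and its libraries on both lay below those on Matrigel. Of 9 motor neuron domain genes, ISL1 was higher on VN and VNP2 by 0.68 and 0.73, and SLC18A3, the vesicular acetylcholine transporter, by 0.26 and 0.94 (adjusted p = 0.0498 and 1.89e-05, edgeR). MNX1 and LHX3, which define motor neurons, had 13 and 5 counts in all. Whether the RNA of SIM1, ISL1 or SLC18A3 came from cells of these domains was not tested. NKX2-1, which marks the ventral forebrain, was above every one of the 9 factors in level. In the p2 list, FOXN4 was higher on VN than on Matrigel by 0.48 and lower on VNP2 than on VN by 0.30, and SOX21 was lower on VNP2 than on both others by about 0.21. Of 8 genes of the p0 and p1 domains, 2 had enough counts to be tested, DBX1 and EN1, and neither passed.

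Among 15 dorsal genes, a list that includes OLIG3, 9 were tested. Against Matrigel 4 were higher on VN (NEUROG1, GSX1, OLIG3 and ZIC1) and 4 on VNP2 (GSX1, ZIC1, GBX1 and GBX2), and none was lower. NEUROG1, a proneural factor, was like OLIG3 highest on VN, with means of 28.97 ± 3.40 with Matrigel, 55.4 ± 9.38 with VN and 30.9 ± 4.37 with VNP2 (SD, n = 2, 3 and 3). Its log2 fold change on VN against Matrigel was 0.93 (edgeR adjusted p = 0.0308), and on VNP2 against VN -0.84 (adjusted p = 0.0551). PAX3 and PAX7, the defining dorsal factors, had 2 and 5 counts in all. GBX1 was higher on VNP2 than on both others, by 1.26 and 1.25.

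**Figure D4:**
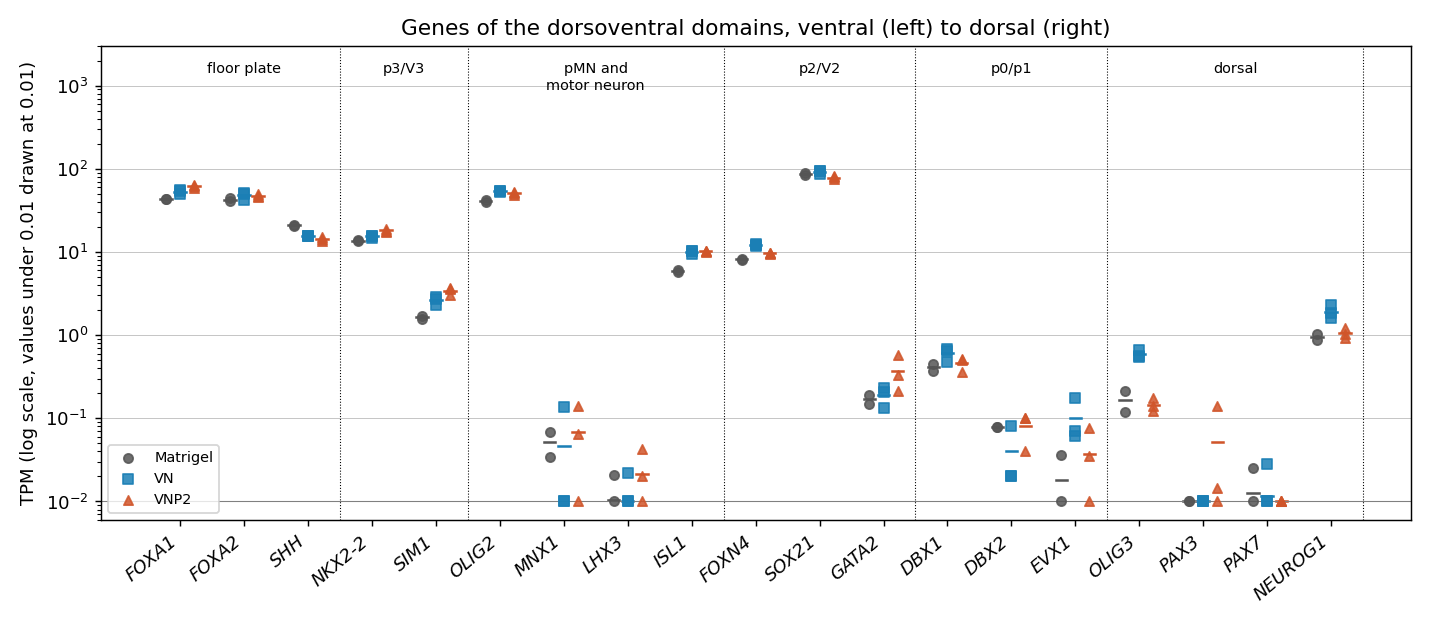
TPM (log scale, vertical axis; values under 0.01 drawn at 0.01) of genes of the dorsoventral domains, ordered from floor plate to dorsal, by library and substrate, with short lines at the mean. The floor plate genes, NKX2-2, SIM1, OLIG2, ISL1, FOXN4 and SOX21 lie above 1 TPM, while MNX1, LHX3, GATA2, the p0 and p1 genes, OLIG3, PAX3 and PAX7 lie below it in every library.

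In a list of oligodendrocyte lineage genes that also holds NKX2-1, 7 of 11 tested passed against Matrigel on each substrate, 5 of them higher. Of all tested genes 15.2% passed on VN and 16.6% on VNP2. The OPC markers PDGFRA and CSPG4 did not pass on VN. SOX9, NFIA and ST18 were higher on both, NFIB and NKX2-1 on VN, and PDGFRA and CSPG4 on VNP2. ZNF488 and MYRF, both tied to differentiation, were lower on both, MYRF by 0.86 and 0.68 on the log2 scale (edgeR adjusted p = 0.00281 and 0.00829). SOX10, a defining factor of the lineage that OLIG2 is known to act upstream of, had 20 counts in all and none in either Matrigel library, and GPR17 and BCAS1 had 12 and 7 counts. The labelled cell type therefore rests here on OLIG1, OLIG2, NKX2-2, PDGFRA at 4.49 TPM and CSPG4 at 0.86 TPM, without SOX10. Bulk RNA does not show whether these genes were expressed in the same cells, and mesenchymal markers, given below, were also present. NKX2-1, which marks the ventral forebrain, was at 365 TPM, above every one of the 9 factors.

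Of 10 co-repressors and partners, 5 passed on VN and 4 on VNP2 against Matrigel, all higher. Among all tested genes 5.81% were higher on VN and 7.45% on VNP2. TLE2, TLE4 and HES1 were higher on both substrates. TLE proteins are the co-repressors through which NKX and other class II factors act, and the E proteins TCF3, TCF4 and TCF12 dimerise with OLIG factors. TCF4 was higher on VN by 0.28 and TCF12 on VNP2 by 0.23, and HES5 was higher on VN by 0.62 and lower on VNP2 than on VN by 0.37.

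Of 9 other progenitor homeobox and PAX genes, 6 were tested and 3 passed on each substrate against Matrigel. The shares over all tested genes were 15.2% on VN and 16.6% on VNP2. MEIS1 was higher on both (0.19 and 0.47 on the log2 scale) and MEIS2 lower on both (-0.18 and -0.34), while PAX8 was lower on VN by 1.70 and GBX2 higher on VNP2 by 0.90. Of 8 neighbouring and antisense transcripts of the factors, ELP4 and CRNDE, which lies beside IRX5, had enough counts to be tested, and neither passed.

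Lists of markers of other cells did not all move alike. Some split in direction, and no astrocyte marker passed in any comparison. Of 6 neuron markers, 3 passed on VN and 4 on VNP2, all higher, and their summed normalised counts were 38311 to 40041 on Matrigel, 43251 to 46381 on VN and 48022 to 49366 on VNP2. STMN2 and DCX, both of young neurons, rose by 0.51 and 0.53 on VN and by 0.72 and 0.72 on VNP2. The sum over 6 mesenchymal markers was 46020 to 48273 on Matrigel, 41977 to 45121 on VN and 35892 to 36757 on VNP2, led by COL1A1, which fell by 1.41 on VNP2, while COL1A2, COL3A1, TWIST1 and LUM were higher there. The sum over 4 pluripotency markers was 4505 to 4770, 3253 to 3422 and 2775 to 2980, led by LIN28A, which fell on both substrates, with POU5F1 at 4.47 TPM. On VN, ESRG was higher by 0.68 and LIN28A lower by 0.56 on the log2 scale, with a median of 0.32 over the 4, and on VNP2 POU5F1, LIN28A and ESRG were all lower. The sum over 6 neural progenitor markers, led by VIM and NES, was 196452 to 200647, 159549 to 164583 and 169967 to 170787. VIM and NES were lower on both substrates, but SOX1 and HES5 were higher on VN and FABP7 on VNP2, and the median log2 fold changes of the 6 were 0.093 and 0.10. The sum over 4 astrocyte markers was 79.9 to 122.2 in all libraries, with GFAP and AQP4 at 42 and 27 counts in all. The sum over 5 neural crest markers was 152.1 to 173.2, 209.4 to 237.6 and 253.9 to 290.7. Of these markers 3 were tested, and only TFAP2A passed, higher on VNP2 than on Matrigel. None passed on VN against Matrigel or between VNP2 and VN. The part of these shifts in the differences of the 9 factors was not tested.

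The genes whose pattern was most like that of a factor were found by the Pearson correlation of log2 CPM over the 8 libraries, among tested genes averaging at least 100 normalised counts. For OLIG2 they were MAP1A (0.99), ATP9A (0.98) and MBIP (0.98). For NKX6-1 they were DPPA4 (0.99), MET (0.99) and FAM111B (0.98). For IRX3, whose counts are sparse, they were AAK1 (0.97), FBXW2 (0.96) and BIRC2 (0.95). With 12995 genes compared over 8 points, values of this size are a description.

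The 3 factors that differed between VNP2 and VN had RefSeq promoter windows (250 bases before to 50 after a start, GRCh38.p14). For each factor 1 window is shown, as a description only. Windows were at hand for 4 of the 9 factors. Capitals mark CANNTG, the E-box that basic helix-loop-helix factors such as OLIG2 can bind, and TATAAA, a core promoter motif, each searched on both strands.
NKX2-2, chr20:21522640-21522939, minus strand: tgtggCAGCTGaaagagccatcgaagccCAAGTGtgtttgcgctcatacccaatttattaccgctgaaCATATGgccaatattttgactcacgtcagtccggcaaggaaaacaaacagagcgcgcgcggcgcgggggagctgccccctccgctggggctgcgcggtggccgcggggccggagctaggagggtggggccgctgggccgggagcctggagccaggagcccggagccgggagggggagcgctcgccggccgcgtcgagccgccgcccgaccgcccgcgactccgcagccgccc
NKX6-1, chr4:84499243-84499542, minus strand: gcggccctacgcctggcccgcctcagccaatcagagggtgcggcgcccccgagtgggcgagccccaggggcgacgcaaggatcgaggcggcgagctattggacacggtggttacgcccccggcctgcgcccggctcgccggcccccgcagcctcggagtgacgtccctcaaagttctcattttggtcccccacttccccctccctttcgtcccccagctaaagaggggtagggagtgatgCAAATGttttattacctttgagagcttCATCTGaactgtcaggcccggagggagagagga
OLIG3, chr6:137494345-137494644, minus strand: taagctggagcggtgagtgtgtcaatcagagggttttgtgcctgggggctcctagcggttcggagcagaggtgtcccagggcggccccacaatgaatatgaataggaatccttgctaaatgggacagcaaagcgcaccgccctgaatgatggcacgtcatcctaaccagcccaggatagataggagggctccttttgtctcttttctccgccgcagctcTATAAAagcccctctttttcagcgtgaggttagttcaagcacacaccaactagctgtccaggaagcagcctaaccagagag
The NKX2-2 window holds 3 matches to CANNTG, the NKX6-1 window 2 and the OLIG3 window 0, and 68.7% of 35116 windows of that length hold at least 1. TATAAA occurs once in the OLIG3 window and in neither of the other 2, against 11.5% of all windows. The GLI motif GACCACCCA, searched on both strands, is in none of the 3, and in 0.236% of all windows. The second NKX2-2 window (chr20:21512911-21513210) holds no CANNTG and 1 TATAAA, like the OLIG3 window, so the NKX2-2 matches depend on the window chosen. Whether any of these motifs bears on the differences between substrates was not tested. The GENCODE v29 start of each gene lies outside these windows, so which start was used in these cells is not known from the gene counts.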

How the data were processed

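RNA of 8 libraries (polyA-selected, stranded paired-end) was quantified by the study with Salmon on GENCODE v32 after Trim Galore, summarised with tximport and normalised with DESeq2 1.27.12 (per the labels and methods). The deposited files give estimated counts and TPM per transcript for each library, and the authors' table gives normalised counts, a signal of gene counts divided by size factors and length. Of 226608 transcripts, 205225 matched GENCODE v29 and held 98.8% to 98.9% of counts. Normalised counts printed here were recomputed. Estimated counts were summed per gene, rounded and fitted with edgeR 4.0.16 (TMM, length offsets, at least 10 counts by its expression filter, total 15), without a replicate block. The replicate numbers showed no pairing of libraries over all genes. DESeq2 1.42.0, limma 3.58.1, R 4.3.3 and Python 3.11.15 were used. Scripts were tested on simulated data. The members and 19 gene lists were chosen with earlier results of these data known. Some genes of these lists, and 1 shared stretch, are not reported here. Named genes are the 9 factors, list genes that passed the test or that define a cell type near 0, and the 3 genes most like OLIG2, NKX6-1 and IRX3 (PAX6 could not be tested). Intervals at 95% are from the fit. Depth was 37997896 to 39429453 estimated counts a library.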

Additional observations from a re-analysis of the deposited data

How the results depend on the processing

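No difference of the 8 tested factors changed direction past the threshold under any alternative. DESeq2 with its size factors, and a filter of at least 50 counts in every library, each gave 2 factors called in place of 3 on VN against Matrigel and on VNP2 against VN, because OLIG3 had no adjusted p or was filtered out. DESeq2 without independent filtering, added after the data were seen, gave 2 on VN against Matrigel. With 1 library left out, VN against Matrigel gave 1184 to 3911 genes and 0 to 3 factors, VNP2 against Matrigel gave 1611 to 3653 genes and 1 to 4 factors, and VNP2 against VN gave 544 to 1979 genes (1979 without VN replicate 1) and 1 to 3 factors, against 2770, 3017 and 942 genes with all libraries. The count of 0 came without Matrigel replicate 3 (edgeR), where 3 factors had an unadjusted p under 0.05. The lone Matrigel library left in that fit was assumed to vary like the other groups. The replicate block gave 3405, 3155 and 1167 genes called and 3, 4 and 3 factors. Same-numbered libraries had correlations of deviations between -0.045 and 0.016, so no pairing was seen over all genes. Pairing that touches only some genes was not tested. Summing TPM over transcripts outside GENCODE v29 was not run, since their genes were not named in the sources used here. Taking transcript shares only from libraries with at least 20 counts left none for PAX6. At these depths PAX6, IRX3, IRX5 and OLIG3, with 36 to 178 counts in all, allow only large differences to be seen, and 6 of the 7 calls against Matrigel were lost without Matrigel replicate 3, but 1 (OLIG1 on VN) without Matrigel replicate 2.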
